A study of Mus musculus with 6 samples.

Results

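The mouse CD209 family consists of C-type lectin genes related to human CD209, which encodes DC-SIGN. Its members here were the 6 genes Cd209a to Cd209f, each read from a probe set annotated to exactly that 1 gene symbol. Cd209g, whose protein name is SIGNR7, also belongs to the family and was measured. It was not among the 6 members and is read with the neighbours of the cluster. Each gene had 1 probe set, so the 6 members were 6 of 19938 genes measured. The family was selected on its log2 levels in these 3 populations, known from an earlier look at the same arrays, so levels and differences of the members are given as a description. No p-value is printed for a member, and counts of members past a threshold of the fit over all genes stand only beside the share of all genes past it.

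The arrays held RNA from conventional dendritic cells (cDC) sorted from the spleens of wild-type (WT) mice, with no treatment stated. The sorts gave 3 populations, with 2 Affymetrix arrays each: type 2 cells positive for both CD24 and CD172a (CD24+CD172a+ cDC2), type 2 cells that lack CD24 (CD24-CD172a+ cDC2), and type 1 cells positive for CD24 (CD24+ cDC1). Strain, age and the number of animals are not given in the sources used here, nor is it stated that the 2 arrays of a population came from separate mice, so their spread may be technical. CD172a, encoded by Sirpa, marks cDC2, and cDC1 are the cells specialised in presenting captured antigen to CD8 T cells.

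Human DC-SIGN sits in the membrane with a carbohydrate recognition domain outside the cell. It binds mannose and fucose glycans in a calcium-dependent way and delivers what it binds to endosomes. It is known for capturing viruses, mycobacteria and fungi on dendritic cells. These are traits of the human protein and are not stated here for each mouse member. The mouse has several family members in a cluster on chromosome 8, and their protein names are CIRE or DC-SIGN for Cd209a, and SIGNR1, SIGNR2, SIGNR3, SIGNR4 and SIGNR8 for Cd209b, Cd209c, Cd209d, Cd209e and Cd209f. In the spleen, SIGNR1 is best known from marginal zone macrophages, which take up polysaccharides from the blood.

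Levels are log2 intensities. No detection calls were used here, so the range of values to be expected of a silent gene was read from 1035 probe sets of olfactory receptor genes, which are not transcribed in most cells outside the nose. The 95th percentile of their population means was 4.66 in CD24+CD172a+ cDC2, 4.76 in CD24-CD172a+ cDC2 and 4.71 in CD24+ cDC1, and a mean at or below it is called near background. A difference against a population near background on both arrays has only a lower bound, computed by raising that population's arrays to their own olfactory receptor percentile. The bound is a difference of means and makes no allowance for the spread between arrays. Each "at least" below is meant in this sense. Median intensities ran from 33.0 to 33.4 over the 6 arrays, and the 2 arrays of a population correlated at 0.992 to 0.993 across genes, which are not independent replicates. The labels of cDC1 and cDC2 fitted their markers. The 6 cDC1 markers summed to intensities of 440 to 514 in CD24+CD172a+ cDC2, 595 to 600 in CD24-CD172a+ cDC2 and 6376 to 6842 in CD24+ cDC1. The 8 cDC2 markers summed to 2365 to 2631 in CD24+CD172a+ cDC2, 2746 to 3002 in CD24-CD172a+ cDC2 and 264 to 272 in CD24+ cDC1. Sirpa, the gene of the sort marker CD172a, is 1 of these 8, so part of their sum follows from the sort. Its intensity at the mean log2 level was 1129 in CD24+CD172a+ cDC2, 1168 in CD24-CD172a+ cDC2 and 36.3 in CD24+ cDC1. Neither list checks the split of cDC2 by CD24. In RNA from sorted cells in bulk, fewer cells that express a gene and less RNA per cell cannot be told apart.

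Cd209a was the member with a strong signal, and both cDC2 populations had it at nearly the same level. Its log2 intensities were 8.77 and 8.83 in CD24+CD172a+ cDC2, against 8.73 and 8.81 in CD24-CD172a+ cDC2 and 4.68 on both arrays of CD24+ cDC1. The arrays of the 2 cDC2 populations overlapped, while both cDC1 arrays lay near background and far below all 4 cDC2 arrays. CD24+CD172a+ cDC2 differed from CD24-CD172a+ cDC2 by 0.03 ± 0.12 (log2 difference with the standard error of the fit), with a 95% interval from -0.24 to 0.31. Against CD24+ cDC1 the log2 difference was 4.12 ± 0.12 for CD24+CD172a+ cDC2 and 4.09 ± 0.12 for CD24-CD172a+ cDC2. Since cDC1 were near background, these correspond to at least 16.7-fold and at least 16.4-fold higher intensities. The order of the levels was thus both cDC2 populations together, not separated beyond their spread, and then cDC1.

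Cd209d, which encodes SIGNR3, a receptor known to bind mycobacteria, was above background in the CD24+CD172a+ population alone among the 3. It read 5.62 and 5.04 in CD24+CD172a+ cDC2, against 4.08 and 3.48 in CD24-CD172a+ cDC2 and 3.67 and 3.66 in CD24+ cDC1. Both CD24+CD172a+ arrays lay above the other 4 arrays, and the arrays of the other populations overlapped. The spread in each cDC2 population was wide (SD 0.41 in CD24+CD172a+ cDC2, against 0.42 in CD24-CD172a+ cDC2, n = 2 each).

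The fitted log2 difference of Cd209d was 1.56 ± 0.22 for CD24+CD172a+ against CD24-CD172a+ cDC2 and 1.67 ± 0.22 for CD24+CD172a+ cDC2 against CD24+ cDC1. Because the lower side was near background in each, the mean intensity was at least 1.42-fold and at least 1.51-fold higher. These bounds leave out the wide spread between arrays and are well short of the 2.94-fold and 3.17-fold of the measured means. CD24-CD172a+ cDC2 differed from CD24+ cDC1 by 0.11 ± 0.22 (95% interval -0.38 to 0.60), with both near background. Leaving out CD24+CD172a+ replicate 1 or CD24-CD172a+ replicate 2 lowered the difference between the cDC2 populations to 1.27 and 1.26.

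Markers of plasmacytoid dendritic cells, a cell type that shares the spleen with cDC, stood beside Cd209d. All 8 measured markers were above background in CD24+CD172a+ cDC2, against 7 in CD24-CD172a+ cDC2 (all but Pacsin1) and 7 in CD24+ cDC1 (all but Siglech). Their summed intensity was 695 to 715 in CD24+CD172a+ cDC2, 477 to 490 in CD24-CD172a+ cDC2 and 643 to 661 in CD24+ cDC1. Siglech, a surface lectin that defines plasmacytoid cells, averaged 5.86 ± 0.18 in CD24+CD172a+ cDC2, 4.78 ± 0.06 in CD24-CD172a+ cDC2 and 4.70 ± 0.01 in CD24+ cDC1 (SD, n = 2 arrays each). In CD24-CD172a+ cDC2 the Siglech mean just passed the olfactory receptor percentile, although neither array passed its own. Siglech and Tcf4 were the 2 of 8 called higher in CD24+CD172a+ cDC2 against CD24-CD172a+ cDC2, with none lower (median 0.40). Of all genes, 0.808% were called higher and 0.652% lower there. Against CD24+ cDC1, Siglech and Tcf4 were called higher in CD24+CD172a+ cDC2 and Ccr9 and Pacsin1 lower (median -0.05). Of all genes, 7.11% were called higher and 6.52% lower in that comparison. Ccr9, a chemokine receptor gene, averaged 5.29 ± 0.27 in CD24+CD172a+ cDC2, 4.83 ± 0.14 in CD24-CD172a+ cDC2 and 7.07 in CD24+ cDC1, so the list did not move as 1 group. The part of these markers in the Cd209d values was not tested.

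Cd209c, which encodes SIGNR2, was modestly above background in both cDC2 populations. It read 5.63 and 5.18 in CD24+CD172a+ cDC2, against 5.28 and 5.06 in CD24-CD172a+ cDC2 and 4.67 and 4.60 in CD24+ cDC1. The cDC2 populations overlapped and both cDC1 arrays lay below them, near background. The log2 difference was 0.24 ± 0.17 between CD24+CD172a+ and CD24-CD172a+ cDC2, with an interval from -0.13 to 0.61. Against CD24+ cDC1 it was 0.77 ± 0.17 for CD24+CD172a+ cDC2 (at least 1.59-fold) and 0.53 ± 0.17 for CD24-CD172a+ cDC2 (at least 1.35-fold).

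Cd209b, which encodes SIGNR1, stayed close to background everywhere. It read 4.67 and 4.64 in CD24+CD172a+ cDC2, against 5.12 and 4.78 in CD24-CD172a+ cDC2 and 4.02 and 4.27 in CD24+ cDC1. The arrays of the 3 populations did not overlap, with CD24-CD172a+ cDC2 on top and cDC1 at the bottom, but in CD24-CD172a+ cDC2 only 1 of the 2 arrays exceeded its own olfactory receptor percentile. The log2 difference was -0.29 ± 0.15 between CD24+CD172a+ and CD24-CD172a+ cDC2 and 0.80 ± 0.15 between CD24-CD172a+ cDC2 and CD24+ cDC1 (at least 1.16-fold higher in CD24-CD172a+ cDC2). CD24+CD172a+ cDC2 exceeded CD24+ cDC1 by 0.51 ± 0.15, with both near background. Of 7 markers of marginal zone macrophages, 3 were above background in CD24+CD172a+ cDC2, 3 in CD24-CD172a+ cDC2 and 2 in CD24+ cDC1. The scavenger receptor Marco and the sialoadhesin gene Siglec1, which define macrophages of the marginal zone, averaged at most 4.56 and 4.73 in any population, and with Msr1 and Cd5l they were the 4 markers near background in all 3. The others were Timd4, Actn1 and Nr1h3. Timd4 averaged 6.602 in CD24+CD172a+ cDC2, 6.996 in CD24-CD172a+ cDC2 and 6.997 in CD24+ cDC1. Actn1 averaged 6.64 in CD24+CD172a+ cDC2, 7.34 in CD24-CD172a+ cDC2 and 8.30 in CD24+ cDC1, and Nr1h3 4.68 in CD24+CD172a+ cDC2, 5.25 in CD24-CD172a+ cDC2 and 4.41 in CD24+ cDC1. Nr1h3 and Msr1 were called higher and Actn1 lower in CD24-CD172a+ cDC2 against CD24+ cDC1, Msr1 with both sides near background. Of all genes, 6.83% were called higher and 8.91% lower there. CD24+CD172a+ cDC2 had 0 of the 7 called higher and 1 lower against each other population. The shares of all genes were 0.808% and 0.652% against CD24-CD172a+ cDC2, and 7.11% and 6.52% against CD24+ cDC1. Nr1h3, Msr1 and Siglec1 had the same order of levels as Cd209b, and Marco, Cd5l, Timd4 and Actn1 did not. The list's summed intensity was 287 to 302 in CD24+CD172a+ cDC2, 392 to 427 in CD24-CD172a+ cDC2 and 528 to 551 in CD24+ cDC1, and their part in the Cd209b values was not tested.

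Cd209e and Cd209f, which encode SIGNR4 and SIGNR8, were near background in all 3 populations. Cd209e read 4.01 and 3.68 in CD24+CD172a+ cDC2, against 3.85 and 3.72 in CD24-CD172a+ cDC2 and 4.14 and 3.97 in CD24+ cDC1. Cd209f read 2.73 and 2.66 in CD24+CD172a+ cDC2, against 2.91 and 2.99 in CD24-CD172a+ cDC2 and 2.97 and 2.64 in CD24+ cDC1, with 34.5% of olfactory receptor probe sets below it in CD24+CD172a+ cDC2, 41.6% in CD24-CD172a+ cDC2 and 36.1% in CD24+ cDC1. Their differences ran from -0.27 to 0.15 on the log2 scale and are given no fold, since neither side rose out of background.

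**Figure D1:**
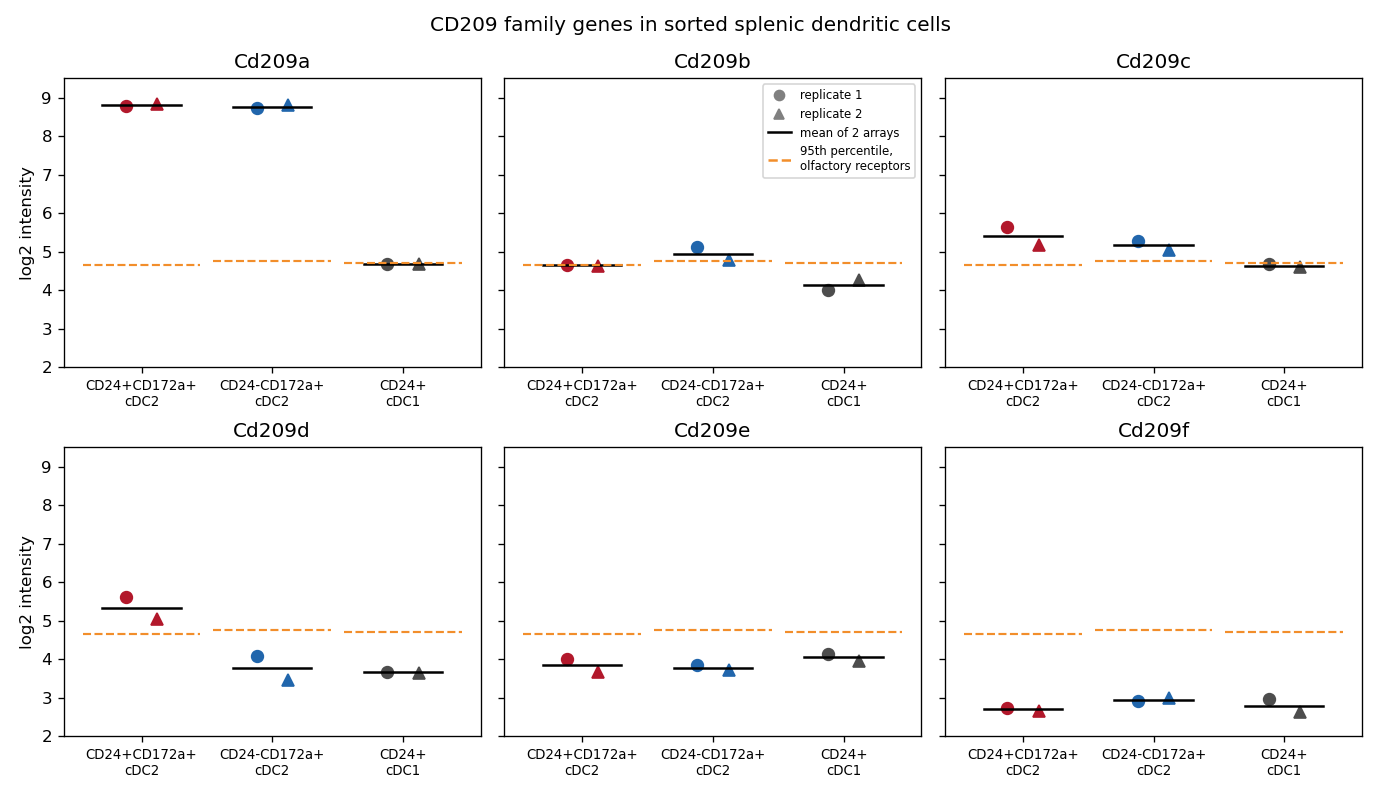
Log2 intensity (vertical axis) of the 6 CD209 genes on each of 6 arrays, with circles for replicate 1, triangles for replicate 2, a black bar for the mean of 2 arrays and a dashed line at the 95th percentile of olfactory receptor probe sets. Cd209a stands at 8.73 to 8.83 on all 4 cDC2 arrays and at 4.68 in CD24+ cDC1, Cd209d clears the line in CD24+CD172a+ cDC2, and Cd209e and Cd209f stay below it.

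**Figure D2:**
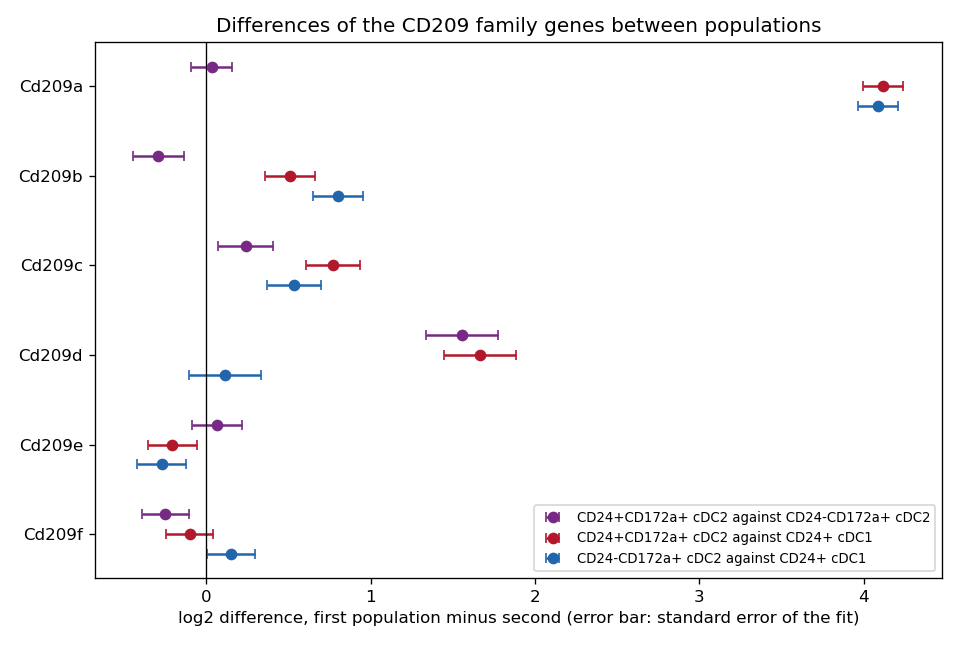
Log2 difference (horizontal axis, first population minus second) of the 6 CD209 genes in the 3 comparisons, with error bars for the standard error of the fit. Cd209a is near 0 between the cDC2 populations and near 4.1 against CD24+ cDC1, and Cd209d differs by 1.56 and 1.67 in the comparisons that set CD24+CD172a+ cDC2 first.

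Counted together, 4 of the 6 members were above background in at least 1 population. Between CD24+CD172a+ and CD24-CD172a+ cDC2, 1 of 6 members (Cd209d) passed limma's threshold (an adjusted p of 0.05) as higher, where 0.808% of all 19938 genes did, and none of 6 as lower (0.652% of all genes, 1.46% in either direction). Between CD24+CD172a+ cDC2 and CD24+ cDC1, 3 of 6 passed as higher (Cd209a, Cd209c and Cd209d), where 7.11% of all genes did, and none as lower (6.52%, 13.6% in either direction). Between CD24-CD172a+ cDC2 and CD24+ cDC1, 2 of 6 passed as higher (Cd209a and Cd209b), where 6.83% of all genes did, and none as lower (8.91%, 15.7% in either direction). Arrays did not overlap in 1 member that was higher and 2 that were lower in CD24+CD172a+ against CD24-CD172a+ cDC2, as in 21.4% and 22.8% of all genes. In CD24+CD172a+ cDC2 against CD24+ cDC1 this held for 4 higher and 0 lower members (23.5% and 28.6% of all genes), and in CD24-CD172a+ cDC2 against CD24+ cDC1 for 3 higher and 1 lower (25% and 27.4%). Several of these counts depended on 1 array: Cd209d between the cDC2 populations passed in 4 of 6 fits with an array left out, not without CD24+CD172a+ replicate 1 or CD24-CD172a+ replicate 2. Cd209c in CD24+CD172a+ cDC2 against CD24+ cDC1 also passed in 4 of 6 (0.54 to 0.998), not without CD24+CD172a+ replicate 1 or cDC1 replicate 2, and Cd209b in CD24-CD172a+ cDC2 against CD24+ cDC1 in 5 of 6 (0.63 to 0.97), not without cDC1 replicate 1. These contrasts entered the choice of the family, so nothing is read from the counts. The median log2 difference of the 6 members was 0.05 in CD24+CD172a+ cDC2 against CD24-CD172a+ cDC2, 0.64 in CD24+CD172a+ cDC2 against CD24+ cDC1 and 0.34 in CD24-CD172a+ cDC2 against CD24+ cDC1. That of all genes was -0.01, -0.03 and 0.001 in the same comparisons. The last 2 comparisons share the cDC1 arrays.

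The start regions of the family show which genes resemble each other in sequence, and they are set out here because Cd209a, Cd209d and Cd209e share a stretch yet differ in level. Starts are those of the RefSeq promoter table, which for Cd209c, Cd209d and Cd209f lie 7883, 49 and 74 bases inside the gene as the RefSeq gene table bounds it. Sequences are from RefSeq on GRCm38.p6, written 5′ to 3′ on the minus strand, on which these 4 genes lie. All 6 members had an entry of 250 bases before to 50 after the annotated start. Cd209a, Cd209d and Cd209e shared a run of 12 bases, TTTCTCTTCCTA, which began 9, 70 and 85 bases before that start (21 for Cd209d from the gene table's start) and is in capitals:
Cd209a, chr8:3748973-3749002: acttctcaaTTTCTCTTCCTAagtaagatt
Cd209d, chr8:3878549-3878578: agttcctttTTTCTCTTCCTAtcagaatgt
Cd209e, chr8:3854351-3854380: agttccttgTTTCTCTTCCTAagaaagagt
Of the 3 genes, Cd209a was high in both cDC2 populations, Cd209d above background in CD24+CD172a+ cDC2 and Cd209e near background throughout. On either strand, 9 of 32851 start regions in the table (0.0274%) held this run.

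A second run, ATAAAAGCTGT, was shared by Cd209a, Cd209b and Cd209e, in capitals in their lines. Cd209d had only its last 7 bases, AAGCTGT, which overlap the longer run and are in capitals in its line:
Cd209a, chr8:3748939-3748968: gaggtggcaaATAAAAGCTGTagtctctgt
Cd209b, chr8:3926824-3926853: acttcaggggATAAAAGCTGTagtctccag
Cd209e, chr8:3854299-3854328: tgggtggcagATAAAAGCTGTtgttctaag
Cd209d, chr8:3878505-3878534: ttaggggacaacagAAGCTGTgctctctcg
The longer run was in 9 of 32851 start regions (0.0274%) and the shorter one in 4.86%, on either strand. The longer run began at base 27 after the annotated start in Cd209a, and 2 and 32 bases before it in Cd209b and Cd209e. The genes with the whole run included Cd209a, with its strong signal in cDC2, and Cd209e, near background. A part of the run in these levels was not tested.

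The 250 bases before the promoter table's start, of which the last 49 in Cd209d lie inside the gene as the gene table bounds it, are given for the members whose values differed most between populations, with the parts of both runs that fall in them in capitals:
Cd209a, chr8:3748985-3749234: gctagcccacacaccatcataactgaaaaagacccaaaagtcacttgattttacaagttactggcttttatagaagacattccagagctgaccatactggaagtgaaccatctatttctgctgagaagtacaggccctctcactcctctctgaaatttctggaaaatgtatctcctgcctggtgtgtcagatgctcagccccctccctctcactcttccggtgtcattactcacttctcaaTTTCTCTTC
Cd209d, chr8:3878500-3878749: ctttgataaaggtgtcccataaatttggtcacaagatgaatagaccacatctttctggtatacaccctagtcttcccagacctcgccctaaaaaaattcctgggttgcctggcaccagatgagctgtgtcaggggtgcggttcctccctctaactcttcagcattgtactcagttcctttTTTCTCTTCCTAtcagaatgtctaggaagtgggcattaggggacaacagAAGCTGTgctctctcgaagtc
GAGGAA, a form of the site recognised by the factor PU.1, was found on either strand in 1 of 6 members, Cd209d, and in 28.3% of all start regions. CAGCTG and CAGGTG, cores bound by E proteins such as TCF4, were found in 0 of 6, against 16.3% and 20.2% of all. Only these exact letters were searched. Shorter or variant forms of the sites, such as the GGAA that the first run holds on its other strand, were not counted. A match is a description of these letters, and binding was not measured.

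Likeness of start regions was also read for Cd209g. The start regions of Cd209f and of its neighbour Cd209g shared an unbroken run of 180 bases, while no pair among the 6 members shared more than 17. Cd209g averaged 4.40 ± 0.11 in CD24+CD172a+ cDC2, 4.63 ± 0.02 in CD24-CD172a+ cDC2 and 4.56 ± 0.10 in CD24+ cDC1 (SD, n = 2 each), near background as Cd209f was. Transcript and probe sequences were not compared, so these runs do not show whether the probe sets tell the genes apart. Hybridisation of 1 member's RNA to another's probes was not tested.

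The neighbours of the cluster were read next, in the order of the same gene table. Mcemp1, a membrane protein gene of mast cells and other myeloid cells, lies on the Cd209a side and had the same order of levels as Cd209a. It averaged 10.05 ± 0.09 in CD24+CD172a+ cDC2, 10.05 ± 0.10 in CD24-CD172a+ cDC2 and 6.15 ± 0.10 in CD24+ cDC1 (SD, n = 2 each). It rose by a log2 of 3.90 ± 0.13 in each cDC2 population against cDC1 (limma, adjusted p = 2.57e-08 in CD24+CD172a+ and 2.17e-08 in CD24-CD172a+ cDC2). Clec4g, a lectin gene known from liver sinusoidal endothelium that lies directly beside Cd209a, averaged 6.005 ± 0.38 in CD24+CD172a+ cDC2, 5.38 ± 0.07 in CD24-CD172a+ cDC2 and 4.29 ± 0.28 in CD24+ cDC1. It was at least 2.41-fold higher in CD24+CD172a+ cDC2 (limma, adjusted p = 0.000134) and at least 1.56-fold higher in CD24-CD172a+ cDC2 (limma, adjusted p = 0.00289) than in cDC1. A dimmer probe set of Clec4g read 3.41 to 3.69 over the 6 arrays and was called in none of the 3 comparisons, so its probe sets disagree.

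Trappc5, which encodes a subunit of a vesicle tethering complex, rose by 0.67 ± 0.13 in CD24+CD172a+ against CD24-CD172a+ cDC2 (7.91 ± 0.10 against 7.25 ± 0.12, limma, adjusted p = 0.0407), a call that none of 6 fits with 1 array left out kept. In the gene table it overlaps Fcer2a, the low-affinity IgE receptor gene, which was near background in all 3 populations. Of the 8 neighbours measured, the family gene Cd209g among them, 4 were above background in at least 1 population. In CD24+CD172a+ against CD24-CD172a+ cDC2, 1 was called higher and 7 were not called (median 0.05). Against cDC1, 4 were called higher in CD24+CD172a+ cDC2, while 3 were in CD24-CD172a+ cDC2 (medians 0.50 and 0.13), and none was called lower in any comparison. Fcer2a was 1 of the called genes in each of these last counts although near background on both sides. Of all genes, 0.808% were called higher and 0.652% lower between the cDC2 populations. The shares were 7.11% and 6.52% in CD24+CD172a+ cDC2 against cDC1, and 6.83% and 8.91% in CD24-CD172a+ cDC2 against cDC1. Nothing is read from the counts of neighbours. On the side of Cd209g, Evi5l averaged 5.67 ± 0.30 in CD24+CD172a+ cDC2, 5.74 ± 0.17 in CD24-CD172a+ cDC2 and 5.71 ± 0.05 in CD24+ cDC1 and was not called in any comparison.

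**Figure D3:**
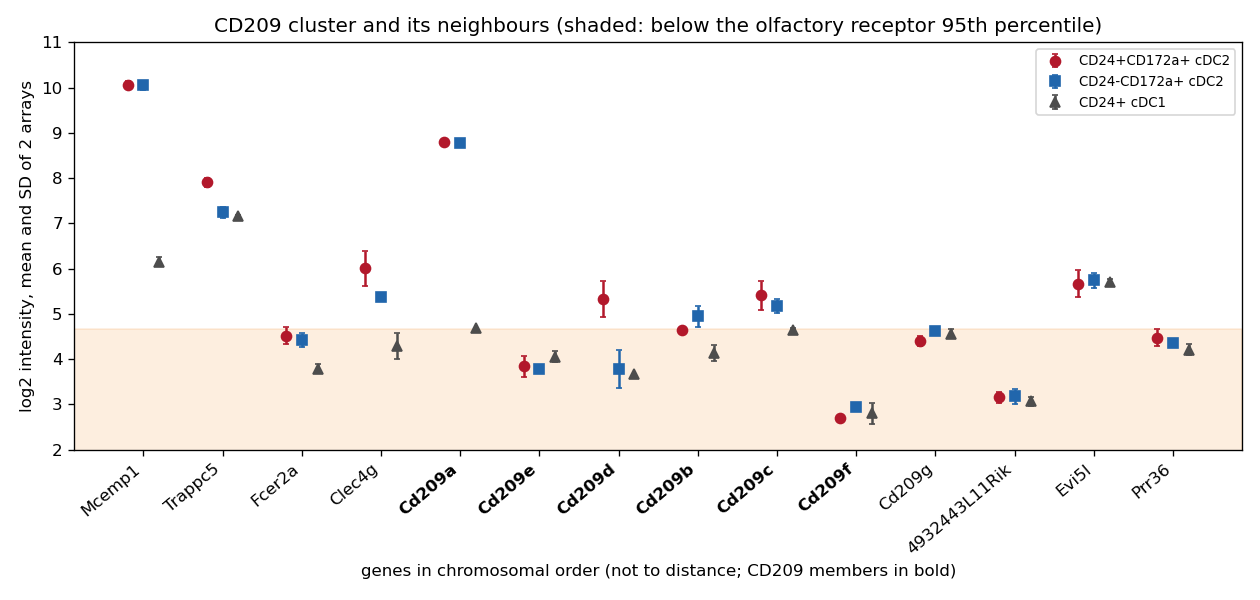
Log2 intensity (vertical axis, mean and SD of 2 arrays) of the CD209 genes and their neighbours in chromosomal order, without distances, with the range below the olfactory receptor percentile shaded. Mcemp1 and Cd209a are high in both cDC2 populations and low in CD24+ cDC1, while Cd209e, Cd209f, Cd209g and Prr36 lie in the shaded range in all 3 populations.

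The genes whose values followed each member most closely were ranked by Pearson's correlation over the 6 arrays, among 1849 genes above background in some population with a log2 range of at least 1. The arrays fall into 3 populations, so this likeness mostly restates the population means and is a description. For Cd209a the 4 nearest were S100a4 (0.9996), a calcium-binding protein gene, Mcemp1 (0.9993), Carmil1 (0.9992) and Bex6 (0.9990). Mcemp1 is also a neighbour of Cd209a on the chromosome. Spearman's correlations with Cd209a were 0.49, 0.77, 0.94 and 0.89 in the same order of genes, so their ranks depended on the measure. These 4 genes differed by 0.00 to 0.04 between the cDC2 populations and were 2.98 to 5.13 higher in them than in cDC1.

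For Cd209d the nearest were Dab2 (0.977), an endocytic adaptor gene, Mtss1 (0.976), whose protein links membranes and actin, Fbxo5 (0.967), an inhibitor of the anaphase-promoting complex, and Bach2 (0.964), a transcriptional repressor. They were 1.74, 0.74, 1.09 and 0.71 higher in CD24+CD172a+ than in CD24-CD172a+ cDC2 on the log2 scale. For Cd209c the nearest were Pmp22 and Lonrf1 (0.983 each), Bhlhb9 (0.978) and Prkce (0.977). For Cd209b they were Gbp3 (0.982), an interferon-inducible GTPase gene, Cdc42ep2 (0.980), Ninj1 and Cyp4f18 (0.976 each). Pmp22 encodes a myelin protein, Prkce a protein kinase C, and Ninj1 a protein that ruptures the membrane of dying cells.

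**Figure D4:**
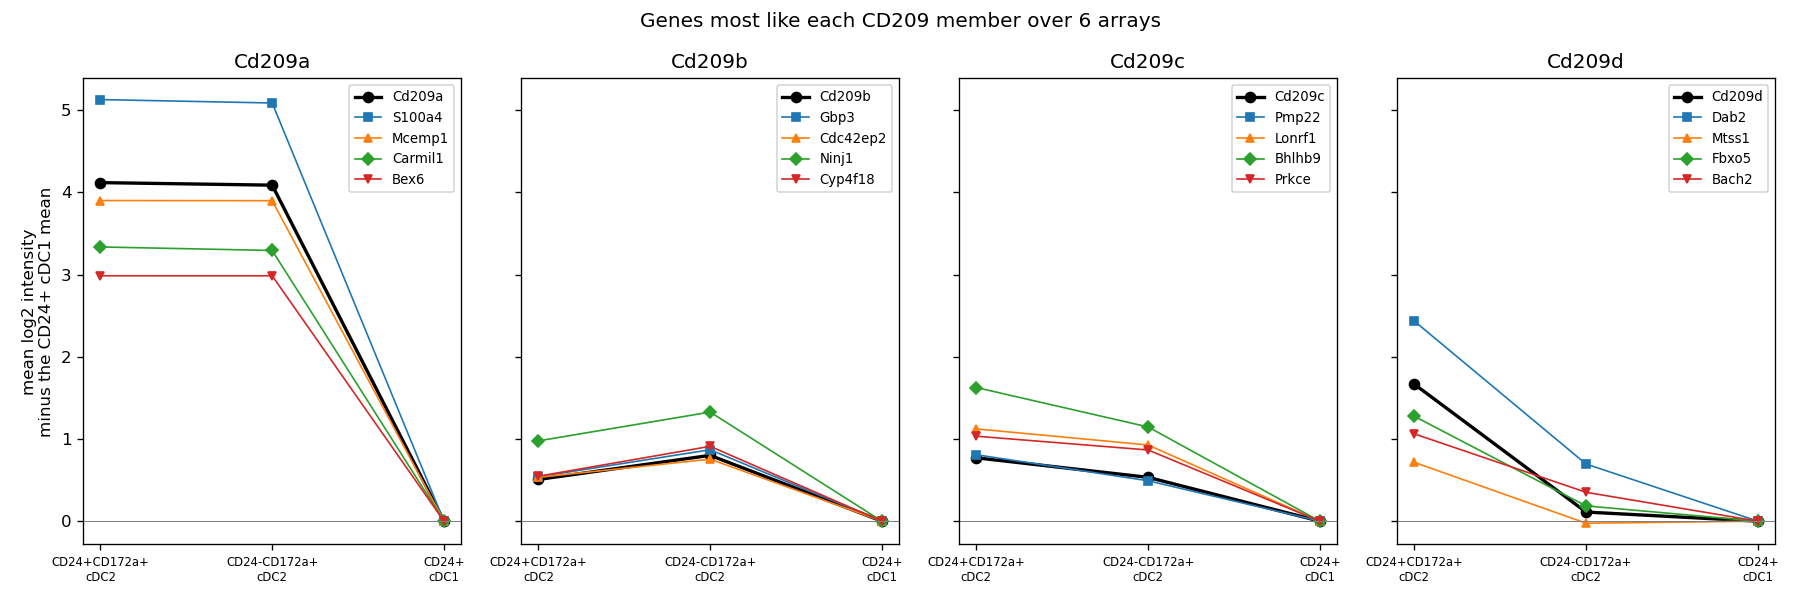
Mean log2 intensity minus the CD24+ cDC1 mean (vertical axis) in the 3 populations for Cd209a, Cd209b, Cd209c and Cd209d (black) and the 4 genes most like each over 6 arrays (coloured). Cd209a and its 4 nearest genes are flat across the cDC2 populations, and Cd209d and its 4 nearest are highest in CD24+CD172a+ cDC2.

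Molecules known from human DC-SIGN to work with it were listed with earlier results known. Its signalling runs through adaptor and kinase complexes that modulate NF-kappaB. Of 16 such genes listed, 11 were measured and 9 were above background. Between CD24+CD172a+ and CD24-CD172a+ cDC2 none of the 11 was called (median 0.07), and the smallest p belonged to Nras (0.47 ± 0.14, limma, adjusted p = 0.155) and Src (0.26 ± 0.17, limma, adjusted p = 0.529). Against cDC1, 2 of the 11 were called higher in each cDC2 population and none lower (medians 0.07 and 0.16). Of all genes, 7.11% were called higher and 6.52% lower in CD24+CD172a+ cDC2 against cDC1. In CD24-CD172a+ cDC2 against cDC1 the shares were 6.83% and 8.91%, and between the cDC2 populations 0.808% and 0.652%. The same shares stand beside the counts of the lists that follow, and nothing is read from those counts. Syk, a kinase downstream of many lectins, averaged 8.72 ± 0.11 in CD24+CD172a+ cDC2, 8.55 ± 0.06 in CD24-CD172a+ cDC2 and 7.24 ± 0.22 in CD24+ cDC1 (SD, n = 2 each). It rose by 1.48 ± 0.15 in CD24+CD172a+ cDC2 (limma, adjusted p = 4.88e-05) and by 1.31 ± 0.15 in CD24-CD172a+ cDC2 (limma, adjusted p = 0.000124). Rela, the p65 subunit of NF-kappaB, rose by 0.61 ± 0.15 in CD24+CD172a+ cDC2 (limma, adjusted p = 0.0182) and by 0.54 ± 0.15 in CD24-CD172a+ cDC2 (limma, adjusted p = 0.0301). In CD24+CD172a+ cDC2 its call ended without cDC1 replicate 2 or CD24+CD172a+ replicate 2 (limma, adjusted p = 0.128 and 0.154). In CD24-CD172a+ cDC2 it ended without any 1 of the 4 arrays compared (limma, adjusted p from 0.0721 to 0.173).

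Of 6 genes listed for ligands of human DC-SIGN and for adhesion molecules related to them, all were measured and above background in some population. Ceacam1, an adhesion molecule of neutrophils and epithelia that carries Lewis x glycans, averaged 8.17 ± 0.06 in CD24+CD172a+ cDC2, 7.78 ± 0.15 in CD24-CD172a+ cDC2 and 4.37 ± 0.13 in CD24+ cDC1. Itgam, the integrin chain CD11b, averaged 7.50 ± 0.05 in CD24+CD172a+ cDC2, 7.81 ± 0.20 in CD24-CD172a+ cDC2 and 4.32 ± 0.49 in CD24+ cDC1. Against cDC1, Ceacam1 was at least 10.8-fold higher in CD24+CD172a+ cDC2 and at least 8.22-fold higher in CD24-CD172a+ cDC2 (limma, adjusted p = 3.46e-08 and 7.16e-08), and Itgam at least 6.81-fold higher in CD24+CD172a+ cDC2 and at least 8.41-fold higher in CD24-CD172a+ cDC2 (limma, adjusted p = 2.22e-06 and 1.09e-06). The other 4 were not called in either comparison with cDC1 (medians of the 6 genes 0.16 and 0.37). Between the cDC2 populations none of the 6 was called (median -0.13), and Ceacam1 differed by 0.40 ± 0.14 (limma, adjusted p = 0.219) and Itgb2 by -0.19 ± 0.13 (limma, adjusted p = 0.553).

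Factors and receptors tied to CD209 expression include the interleukin 4 receptor, since interleukin 4 induces DC-SIGN on human monocyte-derived cells, and transcription factors of the dendritic cell lineage. Of 14 listed genes 13 were measured, all above background. In CD24-CD172a+ cDC2 against CD24+ cDC1, 6 were called higher, 2 lower and 5 not (median 0.31). Il4ra averaged 9.71 ± 0.10 against 8.33 ± 0.07 (1.37 ± 0.14, limma, adjusted p = 5.36e-05), and Irf4, a regulator of cDC2, 9.23 ± 0.05 against 6.66 ± 0.03 (2.56 ± 0.13, limma, adjusted p = 4.53e-07). Zeb2, a repressor that favours cDC2, was at least 9.52-fold higher (limma, adjusted p = 2.95e-08). Irf8, which cDC1 require, fell by 2.33 ± 0.20 (6.42 ± 0.14 against 8.74 ± 0.35, limma, adjusted p = 1.65e-05). In CD24+CD172a+ cDC2 against CD24+ cDC1, 5 were called higher, 3 lower and 5 not (median 0.31), with Zeb2, Irf4 and Tcf4 among the higher and Irf8 among the lower (limma, adjusted p from 3.23e-08 to 5.23e-06).

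Between the cDC2 populations 1 of the 13 was called, Tcf4, an E protein required by plasmacytoid dendritic cells, and 12 were not (median -0.11). It averaged 7.77 ± 0.08 in CD24+CD172a+ and 6.86 ± 0.10 in CD24-CD172a+ cDC2 (0.91 ± 0.13, limma, adjusted p = 0.00973). The call ended without CD24+CD172a+ replicate 1 or 2 or CD24-CD172a+ replicate 1 (limma, adjusted p = 0.115, 0.0683 and 0.0595).

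Other glycan-binding and endocytic lectins set the family in its context. Of 23 listed, all were measured and 12 were above background in some population. Against cDC1, 11 were called higher, 4 lower and 8 not in CD24+CD172a+ cDC2 (median 0.43), and 10 higher, 4 lower and 9 not in CD24-CD172a+ cDC2 (median 0.23). Of all genes, 7.11% were called higher and 6.52% lower in the former, and 6.83% and 8.91% in the latter. Clec9a, the cDC1 receptor for dead cells, averaged 6.87 ± 0.02 in CD24+CD172a+ cDC2, 6.93 ± 0.05 in CD24-CD172a+ cDC2 and 11.32 ± 0.10 in CD24+ cDC1. It fell by 4.45 ± 0.13 in CD24+CD172a+ cDC2 and by 4.40 ± 0.13 in CD24-CD172a+ cDC2 (limma, adjusted p = 1.1e-08 and 1.04e-08). Ly75, which encodes DEC-205, fell by 3.03 ± 0.16 in CD24+CD172a+ cDC2 and by 2.23 ± 0.16 in CD24-CD172a+ cDC2 (limma, adjusted p = 5.01e-07 and 4.37e-06), and Cd207, which encodes langerin, fell by 2.67 ± 0.17 in CD24+CD172a+ cDC2 (limma, adjusted p = 1.99e-06). Clec7a, which encodes the fungal glucan receptor Dectin-1, rose by 2.19 ± 0.13 in CD24+CD172a+ cDC2 and by 2.34 ± 0.13 in CD24-CD172a+ cDC2 (limma, adjusted p = 1.01e-06 and 5.68e-07). These counts include lectins near background on both sides, for which no fold is given: 5 of the 11 in CD24+CD172a+ cDC2 (Mrc1, the mannose receptor gene, Clec10a and Mgl2, which encode galactose-type lectins, Clec4e and Fcer2a) and 4 of the 10 in CD24-CD172a+ cDC2 (those without Mrc1).

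Between CD24+CD172a+ and CD24-CD172a+ cDC2, 1 of the 23 lectins was called higher, 2 lower and 20 not (median -0.10). Siglech was at least 2.05-fold higher (limma, adjusted p = 0.00639), a call that ended without CD24+CD172a+ replicate 2. Clec4n, which encodes the mannan receptor Dectin-2, averaged 6.91 ± 0.03 against 8.19 ± 0.11 and fell by 1.29 ± 0.16 (limma, adjusted p = 0.00678), a call that ended without either CD24+CD172a+ array or CD24-CD172a+ replicate 2. Against cDC1 (5.69 ± 0.34), Clec4n rose by 2.50 ± 0.16 in CD24-CD172a+ cDC2 (limma, adjusted p = 2.46e-06). Ly75 fell by 0.80 ± 0.16 between the cDC2 populations (limma, adjusted p = 0.0415), a call that none of 6 fits with 1 array left out kept.

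**Figure D5:**
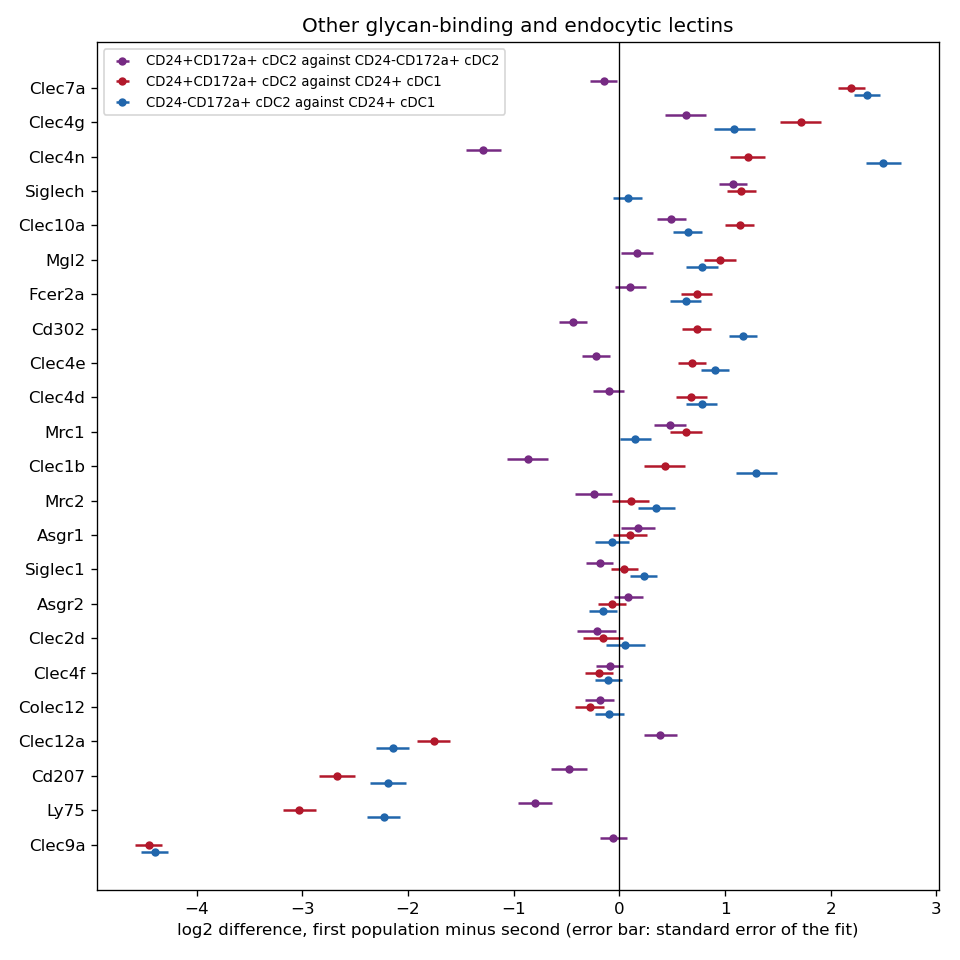
Log2 difference (horizontal axis, first population minus second, error bars for the standard error of the fit) of 23 other glycan-binding and endocytic lectin genes in the 3 comparisons. Clec7a and Clec4g are the highest against CD24+ cDC1 in CD24+CD172a+ cDC2, and Clec9a, Ly75, Cd207 and Clec12a are the lowest.

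Among cells that could be sorted with cDC, markers of red pulp macrophages summed to 590 to 659 in CD24+CD172a+ cDC2, 1190 to 1305 in CD24-CD172a+ cDC2 and 957 to 1173 in CD24+ cDC1, and of 10 markers 6 were above background in CD24+CD172a+ cDC2, 7 in CD24-CD172a+ cDC2 and 4 in CD24+ cDC1. Markers of monocytes summed to 2053 to 2240 in CD24+CD172a+ cDC2, 3559 to 3574 in CD24-CD172a+ cDC2 and 3576 to 3925 in CD24+ cDC1, with 4 of 7 above background in each. Within these lists single markers differed in direction. Csf1r, the receptor for macrophage colony-stimulating factor, averaged 8.54 ± 0.10 in CD24+CD172a+ cDC2, 8.37 ± 0.04 in CD24-CD172a+ cDC2 and 4.77 ± 0.18 in CD24+ cDC1, and Adgre1, which encodes F4/80, 7.77 ± 0.03 in CD24+CD172a+ cDC2, 8.89 ± 0.34 in CD24-CD172a+ cDC2 and 4.17 ± 0.07 in CD24+ cDC1. Both were high in cDC2 and low in cDC1, as Cd209a was. Lyz2, the lysozyme gene, averaged 10.20 ± 0.22 in CD24+CD172a+ cDC2, 11.29 ± 0.05 in CD24-CD172a+ cDC2 and 11.61 ± 0.08 in CD24+ cDC1, and Hmox1, which encodes a haem-degrading enzyme, 6.86 ± 0.06 in CD24+CD172a+ cDC2, 7.52 ± 0.29 in CD24-CD172a+ cDC2 and 9.21 ± 0.23 in CD24+ cDC1. The part of these markers in the Cd209a values was not tested. Of markers of B cells, T cells, NK cells, neutrophils and erythroid cells, 3 of 6, 1 of 4, 1 of 5, 1 to 2 of 5 and 0 of 2 were above background in each population, and 2 to 3 of 5 endothelial markers were.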

How the data were processed

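The authors deposited 1 linear intensity per probe set and array, made by RMA in Affymetrix Expression Console per the submitters' processing notes. Versions and genome build are not given in the sources used here. RMA pulls arrays to a common distribution and summarises several probes per gene. Of 28853 probe sets, 21789 had 1 symbol; 1621 with several and 5443 with none were left out. Log2 was taken and, per gene, the probe set with the highest mean kept (19938 genes, no filter). All 6 arrays entered 1 limma 3.58.1 fit in R 4.3.3 (lmFit, eBayes), adjusted by Benjamini-Hochberg over all genes at 0.05 and tested on simulated data. With 2 arrays per population, their number limits the precision. The members and lists were chosen with earlier results of these data known. Named genes were the 6 members, the 4 most correlated with each member above background, and per list and comparison up to 4 called genes with the largest difference, or else the 2 with the smallest p. Genes named outside it, chosen after their values were seen, were Evi5l, Fcer2a, Mrc1, Clec10a, Mgl2, Clec4e, Cd209g, Prr36, Clec12a, Sirpa and the single markers of other cell types. Alternatives covered the genes tested, probe sets, normalisation, an offset, variance, weights, groups in the fit, the replicate block, left-out arrays and the background level. Figures used matplotlib 3.10.9 in Python 3.11.15.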

Additional observations from a re-analysis of the deposited data

How the results depend on the processing

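Calls between CD24+CD172a+ and CD24-CD172a+ cDC2 numbered 291 (161 higher and 130 lower). They became 437 without genes below the median gene, 464 with an intensity trend and robust variance, and 187 with only the 2 groups compared, and cyclic loess gave 120 higher and 158 lower. Leaving out 1 array gave 20 (without CD24+CD172a+ replicate 1) to 187 there, 1781 to 2769 (2718 with all) for CD24+CD172a+ cDC2 against CD24+ cDC1, and 1922 to 2839 (3137 with all) for CD24-CD172a+ cDC2 against CD24+ cDC1, with the lone array assumed to vary like the other groups. The cause was not tested, beyond the smaller number of arrays. With the replicate number as a block the counts were 411, 2918 and 3323. Same-numbered arrays correlated at 0.08, 0.08 and 0.02 in their deviations, so the numbers were not taken as pairs. Members above background numbered 2 (Cd209a and Cd209c) at the 99th olfactory receptor percentile, 4 at the 90th, and 5 at the 25th percentile of all probe sets or the 95th of vomeronasal receptors. By Spearman's correlation, 5 of the 16 likeness genes stayed among the 4 nearest.

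Adding an offset of 16 lowered the log2 difference of Cd209a against cDC1 to 3.47 and 3.44, and that of Cd209d to 0.92 against CD24-CD172a+ cDC2 and 0.98 against cDC1. With 1 array left out, Cd209d differed by 1.26 to 1.85 between the cDC2 populations, Cd209a by 4.05 to 4.15 against cDC1. An alternative chosen after seeing the data, every value raised to its array's background, gave 0.51 and 0.60 for Cd209d.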
